A study of Danio rerio with 2 samples.

Results

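The genes of vitamin D action and calcium handling were compared between swim-trained and control zebrafish larvae at 10 days after fertilisation. The set is a list of 10 genes, grouped by what they do: cyp24a1, vdra, vdrb, cyp2r1, cyp27b1, trpv6, casr, pth1a, pth1b and stc1l. The set was proposed with earlier values of these arrays in view, and the high ratio of cyp24a1 was already known, so the ratios of the members are a description and carry no test. A probe belonged to a member when its accession matched that gene in the RefSeq gene table. In this way 11 of 43600 probes were paired with 7 of the 10 genes. No probe was paired here with cyp2r1, cyp27b1 or casr, and these are not analysed here. The matching left 18429 probes without a gene, so these genes may still have probes on the arrays. Further probes of the 7 paired genes may also be among those left unnamed.

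RNA came from whole larvae of the wild-type cross Wageningen wild type X Tubingen wildtype (Zod2). Trained larvae swam in daily sessions of 3 hours between days 5 and 10 after fertilisation, per the labels' protocols, and the labels describe the other larvae only as control. Equal RNA from 10 trained fish was combined into 1 trained pool, and equal RNA from 10 control fish into 1 control pool. The 2 pools were hybridised together on 2 Agilent arrays with the dyes exchanged, so that the trained pool carried Cy5 on array 1 and Cy3 on array 2. The arrays are technical repeats of the same pools. There is no spread between fish to set a ratio against, and no p-value, SD or SE over fish is given.

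Vitamin D is made active by successive hydroxylations in liver and kidney, through enzymes that include cyp2r1 and cyp27b1. The active hormone, calcitriol, binds the vitamin D receptor, which pairs with a retinoid X receptor on DNA. One of the best known genes that the receptor switches on is cyp24a1, whose mitochondrial enzyme breaks the hormone down. Fish take up calcium from the water through skin and gill cells that carry the channel trpv6. Stanniocalcin restrains this uptake, while parathyroid hormones act to raise calcium, and the receptor casr senses it.

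Of the 10 genes, cyp24a1 was 2.01-fold higher in the trained pool, with a log2 ratio of 1.02 on array 1 and 0.98 on array 2. It was the 1 member at least 1.5-fold higher on both arrays, which is the size rule used here in place of a test. No member was at least 1.5-fold lower. Over all measured genes, 0.638% met the rule as higher and 0.054% as lower. Over all measured probes the shares were 0.476% and 0.0421%. Nothing is read from the members' count, because the set was chosen knowing it. The receptor gene vdra and the hormone gene pth1b had small ratios, from 1 dim measured probe each. Such ratios do not show that these genes were equal in the pools. The genes trpv6 and stc1l had opposite signs on the 2 arrays.

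A probe was called measured when both pools were well above background on both arrays, by the scanner software's flag. This held for 6 of the 11 member probes, which cover 5 genes, and for 70.8% of all probes. A gene with several measured probes was represented by its brightest one. The 5 measured members had a median log2 ratio of 0.11, against a median of -0.00 over all 11121 measured genes. The members' median was 0.32 on array 1 and 0.06 on array 2. Both arrays placed 3 of the 5 genes higher in the trained pool and none lower, and they differed in sign for the other two. Over all measured genes 24.3% were higher on both arrays, 22.1% lower on both and 53.6% opposite.

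**Figure D1:**
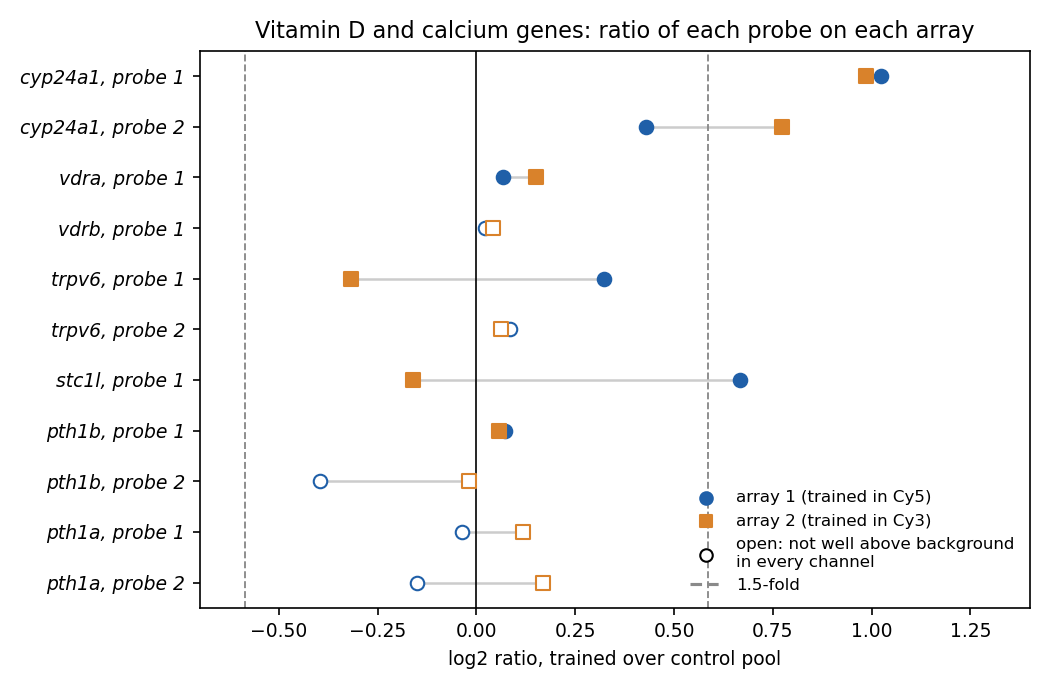
Log2 ratio of the trained over the control pool for each of the 11 member probes, on array 1 (circles) and array 2 (squares). Filled symbols are probes well above background in every channel, open symbols are the others, and dashed lines mark 1.5-fold. Both arrays place the first cyp24a1 probe near 1, while the filled trpv6 and stc1l probes lie on opposite sides of 0.

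The brighter cyp24a1 probe gave a median spot signal of 1518.5 in the trained pool and 813.5 in the control pool on array 1, over local backgrounds of 84 and 31. On array 2 its signal was 1449 in the trained pool and 556.5 in the control pool, over backgrounds of 28 and 82. The trained pool was thus brighter in whichever dye it carried. After normalisation the trained pool was 2.03-fold higher on array 1 and 1.98-fold higher on array 2. The Cy5 over Cy3 ratio of the probe changed sign between the arrays, at 1.02 and -0.98 on the log2 scale, which leaves a dye component of 0.02.

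The second cyp24a1 probe was also higher in the trained pool on both arrays, but less so. Its signal on array 1 was 194 in the trained pool and 109.5 in the control pool, over backgrounds of 80.5 and 26. Array 2 gave 204.5 in the trained pool and 135.5 in the control pool, over backgrounds of 22 and 85. The log2 ratios were 0.43 and 0.77, with a mean of 0.60, or 1.52-fold, and array 1 fell short of the size rule. The 2 probes differed by more than the usual spread between probes of a gene, which was 0.12 (SD, log2, over 6037 genes). The values used here carry an offset of 50, added to the corrected intensities before taking logs, which draws the ratios of dim probes towards 0. With an offset of 0 the second probe stood at 0.64 and 1.15 and met the size rule, and in the deposited ratios at 0.75 and 1.25. The mean of the deposited ratios was 1.03 for the brighter probe and 1.00 for the second.

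The pools can also be compared within a dye, across arrays. In Cy5 the brighter cyp24a1 probe had a signal above background of 1434.5 in the trained pool and 474.5 in the control pool, a ratio of 3.02. In Cy3 it had 1421 in the trained pool and 782.5 in the control pool, a ratio of 1.82. The second probe had ratios of 2.25 in Cy5 and 2.19 in Cy3. These ratios are not normalised between arrays, and the median over all measured probes was 1.28 in Cy5 and 0.98 in Cy3. All 4 cyp24a1 ratios were above the median of their dye. They regroup the same spot signals that gave the array ratios, so they are no independent support for the high ratio.

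**Figure D2:**
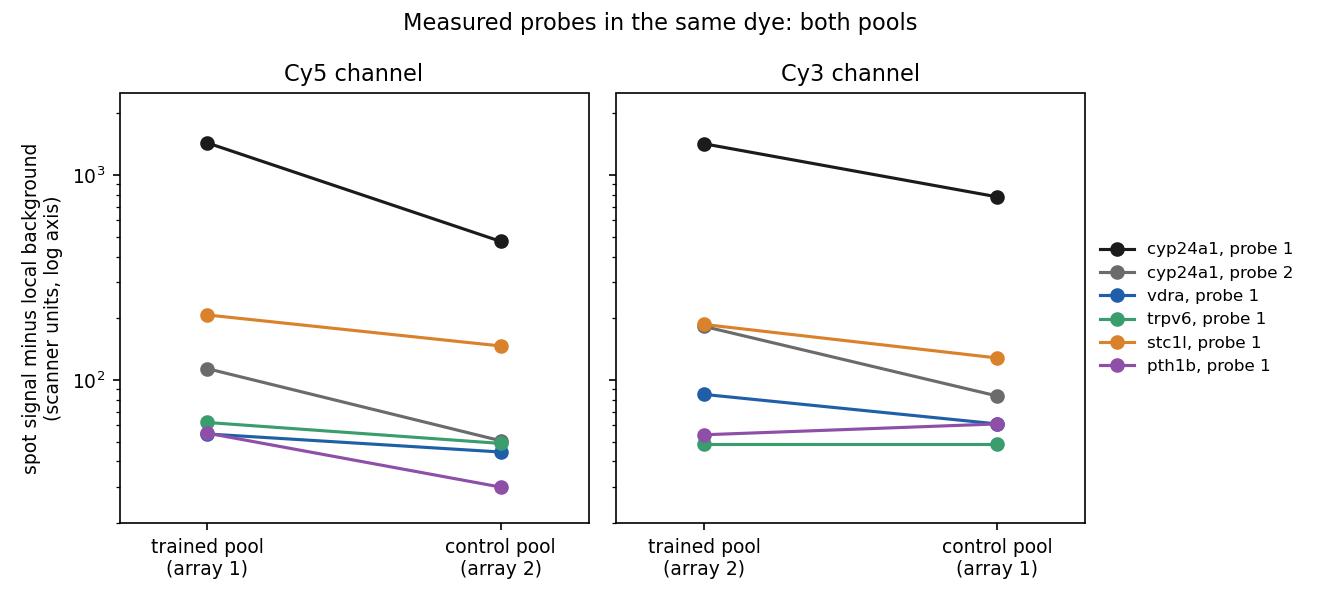
Spot signal minus local background (log axis, scanner units) of the 6 measured member probes, with both pools in Cy5 on the left and both in Cy3 on the right. Each line joins the trained pool to the control pool for 1 probe, and heights are not comparable between probes. Both cyp24a1 probes slope down to the control pool in both dyes, while trpv6 is level in Cy3.

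Among all measured genes cyp24a1 had rank 11 of 11121 by its mean log2 ratio, and rank 6 by the smaller of its 2 array ratios among genes higher on both arrays. The interquartile range over all genes was -0.11 to 0.11. The 5 genes closest to cyp24a1 in the plane of the 2 array ratios, over these 2 arrays, were ahsg1, naga, si:dkey-14d8.6, socs1a and ctsl.1. Their distances to it ran from 0.02 to 0.10 on the log2 scale. The nearest, the plasma protein gene ahsg1, stood at 1.01 on array 1 and 0.97 on array 2. The lysosomal enzyme gene naga stood at 0.99 and 1.03, and socs1a, an inhibitor of cytokine signalling, at 1.11 and 1.00. With only 2 arrays of the same pools, such closeness reflects similar size and no pattern over conditions.

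**Figure D3:**
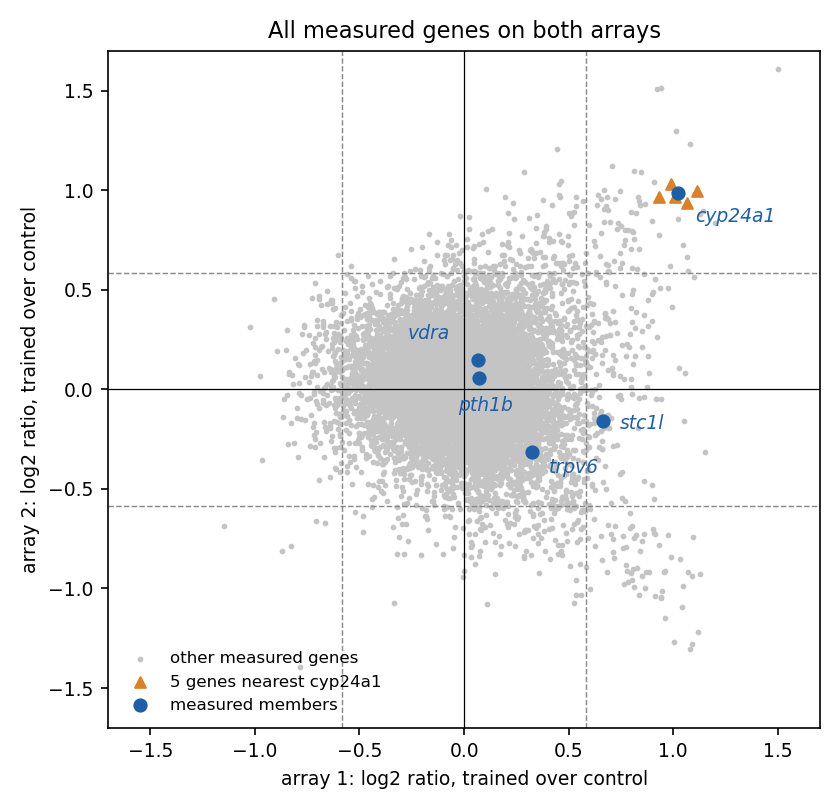
Log2 ratio of the trained over the control pool on array 1 (horizontal) and array 2 (vertical) for all 11121 measured genes (grey), the 5 measured members (blue circles) and the 5 genes nearest cyp24a1 (orange triangles). Dashed lines mark 1.5-fold. The gene cyp24a1 lies in the sparse upper right corner, vdra and pth1b in the dense centre, and stc1l and trpv6 at lower right, where the arrays differ in sign.

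The vitamin D receptor has 2 genes in zebrafish, vdra and vdrb. The single vdra probe had a signal of 135 in the trained pool and 88.5 in the control pool on array 1, over backgrounds of 80.5 and 27.5. On array 2 it had 109 in the trained pool and 123 in the control pool, over backgrounds of 24 and 78.5. Its log2 ratios of 0.07 and 0.15 had a mean of 0.11, or 1.08-fold, which is less than the SD of 0.12 between probes of a gene. Under the deposited ratios vdra stood at 0.28 and 0.30, also below the size rule. Within a dye, not normalised between arrays, its trained over control ratio was 1.22 in Cy5 and 1.39 in Cy3. The all-probe medians were 1.28 and 0.98, so the Cy5 ratio lay just below its median and the Cy3 ratio above. A small ratio from 1 dim probe and 1 pool per condition does not show that vdra was equal in the pools. The vdrb probe was dim, and each pool was well above background on 1 of 2 arrays, when it carried Cy3. Its log2 ratios were 0.02 and 0.04 here and -0.36 and 1.35 in the deposited ratios, so no direction is given for it.

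The channel gene trpv6 had 1 measured probe out of 2. On array 1 its signal was 142 in the trained pool and 72.5 in the control pool, over backgrounds of 80 and 24. Array 2 gave 73 in the trained pool and 128.5 in the control pool, over backgrounds of 24.5 and 79.5. The log2 ratios were 0.32 and -0.32, with a mean of 0.00 and a dye component of 0.32. After normalisation the ratio favoured Cy5 on both arrays, whichever pool carried it. Above background, before normalisation, the signal was 62 in Cy5 and 48.5 in Cy3 on array 1. On array 2 it was nearly equal, at 49 in Cy5 and 48.5 in Cy3. The second trpv6 probe was well above background in neither pool on either array, with ratios of 0.09 and 0.06. Within a dye, not normalised between arrays, the measured probe had a trained over control ratio of 1.27 in Cy5 and 1.00 in Cy3. Both were near the all-probe medians of 1.28 and 0.98. A mean of 0.00 from 1 dim probe and 1 pool per condition does not show that trpv6 was equal in the pools.

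The stanniocalcin gene stc1l, whose hormone comes from the corpuscles of Stannius in fish, had a single probe. On array 1 its signal was 281 in the trained pool and 148 in the control pool, over backgrounds of 73.5 and 20. Array 2 gave 208 in the trained pool and 227 in the control pool, over backgrounds of 21.5 and 80.5. The log2 ratios were 0.67 and -0.16, with a mean of 0.25 and a dye component of 0.41. The sign on array 2 depended on the processing, since the deposited ratios were 0.65 and 0.28. Within a dye the trained over control ratio was 1.42 in Cy5 and 1.46 in Cy3, against all-probe medians of 1.28 and 0.98. These ratios are not normalised between arrays, and the Cy5 ratio lay close to its median. The gene stc1l met the size rule on array 1 alone.

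Of the parathyroid hormone genes, pth1b had 1 measured probe out of 2 and pth1a none out of 2. The measured pth1b probe had a signal of 139 in the trained pool and 90 in the control pool on array 1, over backgrounds of 84 and 29. On array 2 it had 82 in the trained pool and 110 in the control pool, over backgrounds of 28 and 80. Its log2 ratios of 0.07 and 0.06 are smaller than the spread between probes of a gene. They were 0.08 and -0.02 with median centring in place of loess, and 0.03 and 0.38 in the deposited ratios. The sign on array 2 thus depended on the processing. Small ratios from 1 dim probe and 1 pool per condition do not show that pth1b was equal in the pools. Within a dye the trained over control ratio was 1.83 in Cy5 and 0.89 in Cy3, against all-probe medians of 1.28 and 0.98. The other pth1b probe gave -0.40 and -0.02, with each pool well above background on 1 of 2 arrays. Both paired pth1a probes were well above background in neither pool on either array, so no ratio is read for pth1a.

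In wider lists of genes chosen by role, 57 of 97 genes were measured, 5 of them members. Apart from the members, 52 measured genes had a median log2 ratio of 0.02, and none met the size rule in either direction. The arrays gave opposite signs for 32 of these 52, while 14 were higher on both and 6 lower on both. The lists were drawn up by role with earlier results of these arrays known.

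The list of vitamin D making, carrying and breakdown had 6 measured genes of 15 and the highest median of the 5 lists, 0.28. That median includes cyp24a1, whose high ratio was already known. With cyp24a1 left out, the middle gene had a mean of 0.02, below the median of 0.13 of the hormone list. The rank of this list is therefore no separate result. Both arrays placed 3 of the 6 higher in the trained pool and 1 lower, and cyp24a1 alone met the size rule. The lowest was lrp2a, the endocytic receptor megalin of the kidney tubule, at -0.25 and -0.10. The deposited ratios gave 0.06 and -0.04 for lrp2a, so its sign on array 1 depended on the processing. The genes gc and cyp3a65 were singled out after their values were seen. The vitamin D binding protein of blood plasma, gc, stood at 0.46 on array 1 and 0.98 on array 2, a mean of 0.72. A gene of the liver and gut enzyme family CYP3A, cyp3a65, stood at 0.34 and 0.73, and its second probe at 0.93 and 0.74. With these values gc met the size rule on array 2 alone, and cyp3a65 met it through its second probe.

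Among liver and intestine markers, more were higher than lower in the trained pool on both arrays, but not all were higher. Over all measured genes 24.3% were higher on both arrays, 22.1% lower on both and 53.6% opposite, and 0.638% met the size rule as higher. The marker lists, too, were drawn up with earlier results of these arrays known, so their counts and medians are a description. The 9 measured liver markers, among them gc and ahsg1, had a median of 0.69 and a range of -0.09 to 0.99. On both arrays 6 were higher and 1 was lower, and 2 were opposite. The gene gc, singled out for its value, is 1 of those 6. The 10 measured intestine markers had a median of 0.35 and a range of -0.08 to 0.87, with 6 of them higher, 1 lower and 3 opposite. The 8 measured kidney tubule markers had a median of -0.11 and a range of -0.28 to 0.11, with 1 higher and 4 lower. The size rule was met as higher by 2 of the liver markers, apoa2 and ahsg1, by 2 of the intestine markers, anpepb.1 and rbp2b, and by none of the kidney markers. The apolipoprotein gene apoa2 stood at 0.67 and 0.84, the peptidase gene anpepb.1 at 0.90 and 0.85, and the retinol-binding protein gene rbp2b at 0.75 and 1.00. The lower ones were fga of the liver, at -0.11 and -0.07, and fabp1b.1 of the intestine, at -0.04 and -0.13. Opposite on the arrays were fabp10a and fgb of the liver, and fabp2, apoa4b.1 and vil1 of the intestine. The part of these tissues in the ratios of cyp24a1, gc and cyp3a65 was not tested. In RNA of whole larvae, more cells of a type and more RNA per cell cannot be told apart.

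Genes of the receptor's partners and coregulators centred on 0.02, and 5 of the 9 measured genes were opposite on the arrays, with 3 higher and 1 lower. The retinoid X receptor gene rxraa was highest, at 0.21 and 0.45, and the coactivator gene ncoa2 lowest, at -0.29 and 0.04. Neither met the size rule.

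The list of calcium uptake and export by epithelia centred on 0.00 with 18 measured genes, of which 14 were opposite on the arrays. Its highest gene, the calcium-binding protein gene calb2b, stood at 0.04 and 0.16, and the other measured calb2b probe at 0.13 and -0.16. The lowest gene of the list, the plasma membrane calcium pump gene atp2b3b, stood at -0.41 and -0.13, and the other measured atp2b3b probe at -0.08 and -0.20. The 11 measured ionocyte markers, which include trpv6, had a median of 0.08 and a range of -0.11 to 0.32, with 5 higher, 1 lower and 5 opposite.

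Hormones of calcium control and their receptors had a median of 0.13 over 12 measured genes of 26. The arrays placed 6 of them higher in the trained pool and 0 lower, and gave opposite signs for 6. The calcitonin gene calca was highest, at 0.31 on array 1 and 0.27 on array 2 by its brightest probe. Its 2 other probes had means of 0.06 and 0.16, the first from -0.10 and 0.21 on the arrays. The receptor-associated gene ramp2 was lowest, at -0.25 and 0.11. The 5 measured markers of the corpuscle of Stannius and the gill buds that make parathyroid hormone, among them stc1l and pth1b, had a median of 0.17, with 3 higher and 2 opposite.

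Phosphate handling and mineralisation genes centred on 0.02, and 7 of the 12 measured genes were opposite on the arrays, with 2 higher and 3 lower. The highest was ankha, a relative of the mammalian pyrophosphate exporter gene ANKH, at 0.36 and 0.32, with its other measured probe at 0.17 and 0.04. The lowest was mgp, which encodes matrix Gla protein, an inhibitor of calcification, at -0.46 and -0.17. The deposited ratios gave -0.78 and -0.69 for mgp, past the size rule, so its call depended on the processing.

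**Figure D4:**
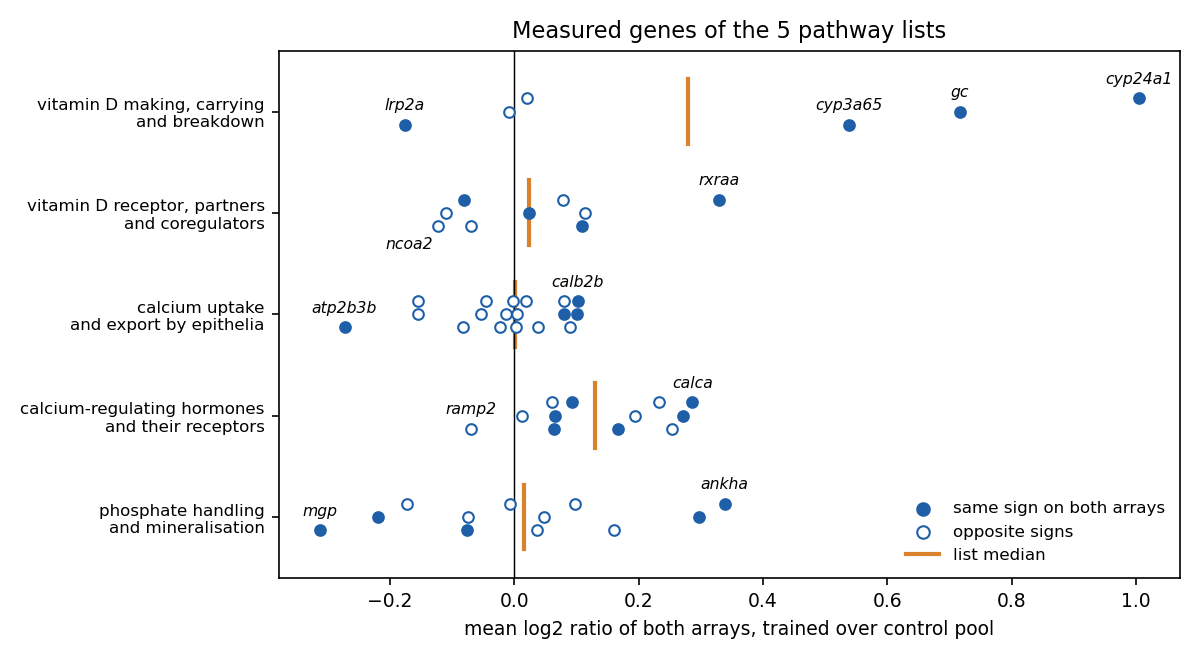
Mean log2 ratio of the trained over the control pool for each measured gene of the 5 lists. Filled circles have the same sign on both arrays, open circles opposite signs, and orange bars are list medians. Labels name the highest and lowest gene of each list, with gc and cyp3a65 added. The vitamin D metabolism list, with a median of 0.28 that includes cyp24a1, holds the 3 highest genes shown. The calcium transport list sits at 0.00.

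The ratio of cyp24a1 ran from 0.80 to 1.06 over 7 alternatives run on both arrays, and met the size rule in each of them. The lowest value was the mean of its 2 probes, 1.74-fold, which moved from the reported value by more than the spread between probes of a gene. At a threshold of 2-fold cyp24a1 no longer met the rule, because array 2 stood at 1.98-fold. Of the other measured members, none met the size rule under these 7 alternatives.

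**Figure D5:**
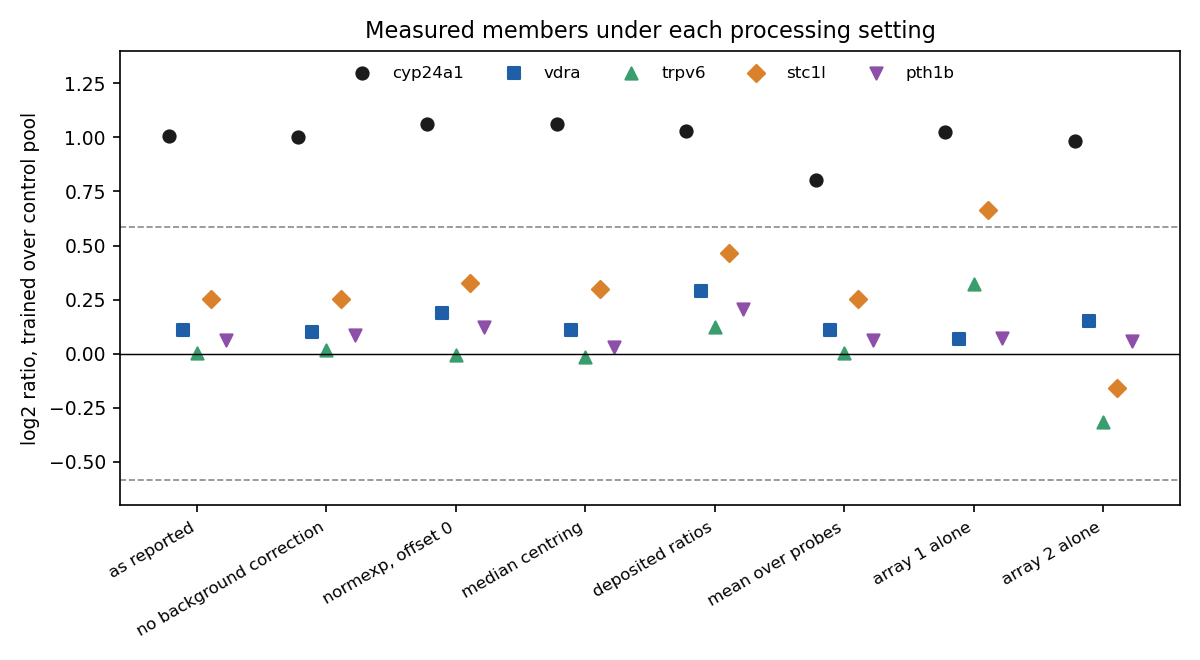
Log2 ratio of the trained over the control pool of the 5 measured members as reported, under 5 processing alternatives and on each array alone. Dashed lines mark 1.5-fold. Values of cyp24a1 stay between 0.80 and 1.06, while stc1l and trpv6 change sign between array 1 alone and array 2 alone.

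The median spot signal was 178.5 in the trained pool (Cy5) and 137.5 in the control pool (Cy3) on array 1, and 136 (Cy3) and 155.5 (Cy5) on array 2. Depending on the channel, 71.3% to 84.2% of spots passed the background flag. The main limit is 1 pool per condition, since more arrays of the same pools would give no spread between fish. Markers of larval tissues, from muscle, lens and retina to skin and blood, were measured for 23 of 25 genes. Their median log2 ratio was 0.10, with 9 higher in the trained pool on both arrays, 0 lower and 14 opposite. The median of these markers was 0.24 on array 1 and -0.05 on array 2, so its sign differed between the arrays. The size rule was met by 0 of them. Over all measured probes, the trained over control ratios of array 1 and array 2 had a Pearson r of -0.04 as processed here. In the deposited ratios r was 0.11. The arrays thus agreed little over the probes as a whole, and 53.6% of all measured genes had opposite signs. Probes are not independent replicates. The series' design text gives the same dye orientation for both arrays, and the directions above rest on the sample titles and channel labels, which state the exchange.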

How the data were processed

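Two-colour Agilent arrays measured 1 trained and 1 control pool on 2 arrays with exchanged dyes. Per the file headers, each scanner file holds the median intensity of every spot and its local background in Cy3 and Cy5, made with Agilent Feature Extraction 10.5.1.1 per the submitters' processing notes. The deposited log10 ratio is Cy5 over Cy3 after that software's background and dye steps. The deposited series value table equals it for 43600 of 43600 probes on each array once array 2 is multiplied by -1, so that it runs trained over control throughout. The other deposited columns used are flags, which are not measurements.

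Ratios were rebuilt with limma 3.58.1 in R 4.3.3 by normexp background correction with an offset of 50 and loess within each array, with control and outlier spots at weight 0. The sign of array 2 was turned, and spots and then arrays were averaged. The dye component is the mean before turning. No spot was saturated, and 13 outlier spots were left out. Accessions without version were matched to the RefSeq gene table of GRCz12tu, which gave 25171 probes a gene and 18429 none. Coordinates are left out, since the array design rests on an earlier genome build than that table. Tables were handled in Python 3.11.15 with numpy 2.4.6, pandas 2.3.3 and scipy 1.17.1.

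Members and lists were chosen with earlier results of these data known. The rule for named genes took all members, the highest and lowest gene of each pathway list, pathway list genes meeting the size rule and the 5 genes nearest cyp24a1. Outside it, gc, cyp3a65, atp2b2, alpl, spp1 and the other liver and intestine markers named were chosen after their values were seen. Lists covered 5 pathways and 6 marker sets. Alternatives were no background correction, an offset of 0, the mean over probes, the series value table, the deposited ratios, centring on the median in place of loess, a looser detection filter, each array alone, and thresholds of 2-fold and 1.2-fold.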

Additional observations from a re-analysis of the deposited data

How the results depend on the processing

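No paired analysis was possible because each condition is 1 pool and both arrays repeat the same comparison. Spread between fish is therefore in none of the ranges given. The 7 alternatives on both arrays include a repeat, since the series value table gave the deposited ratios. The looser detection filter kept the same probe for each measured member, so it left the members' values unchanged. Under the deposited ratios and under the series value table the members' median was 0.29 in place of 0.11, 2 vitamin D metabolism genes met the size rule as higher (cyp24a1 and gc) in place of 1, and 1 phosphate gene (mgp) met it as lower in place of 0. In the same settings the share of all genes meeting the rule was 0.944% as higher and 0.135% as lower, against 0.638% and 0.054% as reported. The mean over probes gave 0.80 for cyp24a1, and 2 vitamin D metabolism genes (cyp24a1 and cyp3a65) met the rule. On single arrays the members' median ran from 0.057 to 0.32 and the members meeting the rule as higher from 1 to 2, the second being stc1l on array 1, where 2.69% of all genes met it, against 2.10% on array 2. A threshold of 2-fold left 0 members, with 3 of all 11121 genes meeting it as higher, and 1.2-fold left 1, with 3.74% of all genes. The cause of these shifts was not tested. Dim probes limit what can be said of vdrb, pth1a and the second trpv6 probe.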

Other observations

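Some genes of calcium and mineral handling had large ratios of opposite sign on the 2 arrays, so that the dye component exceeded the mean. Their values were known when they were picked. The plasma membrane calcium pump gene atp2b2 stood at 0.58 on array 1 and -0.89 on array 2 by its brightest probe, while its 4 other measured probes had means between 0.03 and 0.19. The alkaline phosphatase gene alpl, which acts in mineralisation, stood at 0.44 and -0.59 by its brightest probe. Its other probes gave -0.29 and 0.13, and -0.05 and -0.11. The matrix phosphoprotein gene spp1 stood at -0.52 and 0.51 by its brightest probe, while its other probes gave 0.33 and 0.01, and 0.10 and -0.02. The large opposite ratios were thus those of 1 probe per gene. No direction between the pools is given for these 3 genes.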
